A study of Homo sapiens with 24 samples.

Results

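ADAM and ADAMTS metalloproteases were followed across RNA-seq libraries of metastatic clear cell renal cell carcinoma (ccRCC) cells with and without depletion of the renal lineage factor PAX8. The members are the genes whose symbol is ADAM, ADAMTS or ADAMTSL followed by a number, together with ADAMDEC1, which gave 47 of the 26475 genes listed in each library. The rule used no measured value. ADAMs are mostly membrane-anchored proteins whose metalloprotease domain releases the extracellular parts of growth factors, cytokine receptors, Notch receptors and adhesion molecules, and whose disintegrin domain binds integrins. ADAMTS proteases are secreted, carry thrombospondin repeats that hold them in the matrix, and cut proteoglycans, procollagens or von Willebrand factor. ADAMTS-like proteins share the thrombospondin repeats and lack a protease domain. Some ADAMs have lost the zinc-binding residues of the catalytic site and act as binding proteins.

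The cells are 786-M1A and OS-LM1, metastatic derivatives of the 786-O and OS-RC2 ccRCC lines, both with VHL mutations, and both grown in RPMI with fetal bovine serum. In each line, 4 libraries carry shPAX8-1, 4 carry shPAX8-2 and 4 carry sgNTC18, which makes 24 libraries in all. The shPAX8 constructs are RNAi hairpins against PAX8, and the study's methods name doxycycline-inducible hairpin vectors. sgNTC18 is a non-targeting guide RNA, a different kind of construct from an RNAi hairpin, and the labels do not say whether both kinds were grown, prepared and sequenced together. In every comparison with sgNTC18, PAX8 depletion and the difference of construct kind or experiment therefore cannot be told apart. Nothing in the labels says that the 4 replicates of a group came from separate cultures, so the p-values measure only the spread between these libraries.

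The libraries held from 11634419 to 52059375 expected counts. Of the 8 renal carcinoma markers, 8 were at 1 TPM or more on average in every OS-LM1 group and 7 in every 786-M1A group, where CA9 stayed at or below 0.04 TPM on average. No endothelial marker (PECAM1, CDH5, VWF, KDR) reached 1 TPM in any group, and of the leukocyte markers PTPRC, CD3E and CD68 only CD68 did, at group means of 77.2 to 325 TPM. The fibroblast and pericyte markers DCN, LUM, PDGFRB and ACTA2 summed to 204 to 252 TPM in the 786-M1A sgNTC18 libraries, 108 to 183 with shPAX8-1 and 299 to 358 with shPAX8-2, and in OS-LM1 to 84.7 to 108, 194 to 237 and 299 to 341, with ACTA2 the main contributor in OS-LM1 and PDGFRB in 786-M1A. DCN stayed at or below 0.61 TPM on average in every group. The part of these markers in the results on members was not tested. The 4 shPAX8-1 libraries of 786-M1A fell into a pair of replicates 1 and 2 and a pair of replicates 3 and 4, with a chi-square per gene of 44.7 to 77.4 across the pairs against 14.1 and 3.73 within them, while pairs of replicates in the other 5 groups gave 3.96 to 89.5, the highest being replicates 3 and 4 of the OS-LM1 shPAX8-2 group. This chi-square was taken on raw counts and also rises with depth, so its values cannot be compared between groups of unlike depth. Those last 2 libraries held 52059375 and 33555410 expected counts, against 16421429 to 19928571 in the 786-M1A shPAX8-1 group.

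The constructs are shown first, because every comparison rests on them. The guide strand of each hairpin has 22 bases and is written 5′ to 3′ with its seed, bases 2 to 8, in capitals.
shPAX8-1: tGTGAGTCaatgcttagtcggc
shPAX8-2: tAGAGTTGtgttaataatggag
The shPAX8-1 target lies in PAX8 on the minus strand of GRCh38 chromosome 2, 113241690 to 113241711, in an exon of 10 GENCODE v44 transcripts, coding in 8 of them. The shPAX8-2 target lies at 113218122 to 113218143, in a UTR of 7 transcripts and coding in none. PAX8 stood at 142, 178, 163 and 145 TPM in the sgNTC18 libraries of 786-M1A, at 9.76, 9.62, 6.50 and 5.99 TPM with shPAX8-1 and at 17.9, 18.8, 18.0 and 16.5 TPM with shPAX8-2. In OS-LM1 the values were 114, 122, 106 and 112 TPM with sgNTC18, 35.5, 38.1, 26.8 and 36.4 TPM with shPAX8-1 and 34.5, 27.0, 40.6 and 31.8 TPM with shPAX8-2. PAX8 was lower in all 16 shPAX8 libraries than in any sgNTC18 library of the same line, by log2 fold changes of -4.16 and -2.99 in 786-M1A and -1.76 and -1.71 in OS-LM1, so less PAX8 RNA remained in 786-M1A.

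Levels between genes are compared in TPM, which divides by transcript length. Of the 47 members, 24 never reached 1 TPM in any library, and ADAMTS19 and the pseudogene ADAM6 were counted at 0 in all 24. The members summed to 379 ± 15.8 TPM (SD, n = 4) in the 786-M1A sgNTC18 libraries, 417 ± 21.0 with shPAX8-1 and 443 ± 19.2 with shPAX8-2, and to 432 ± 23.0, 542 ± 81.6 and 579 ± 49.5 TPM in OS-LM1. ADAM9, ADAM10, ADAM15 and ADAM17, which are made by most cell types, held 72.2% to 84.5% of that sum in each group. ADAM9 was the highest member in 5 of the 6 groups, at 88.2 ± 13.3, 177 ± 26.7 and 182 ± 16.8 TPM in 786-M1A and 181 ± 13.9, 278 ± 50.8 and 287 ± 34.0 TPM in OS-LM1. The exception was the sgNTC18 group of 786-M1A, where ADAM15 led with 119 ± 14.9 TPM. ADAM10 stood at 47.7 ± 6.28, 63.9 ± 11.2 and 56.6 ± 8.61 TPM in 786-M1A and 85.6 ± 5.30, 125 ± 15.1 and 137 ± 14.4 TPM in OS-LM1. ADAM15 held 50.8 ± 17.0 and 64.4 ± 5.11 TPM in the shPAX8 groups of 786-M1A, next to ADAM10 in the order of levels. Averaged over the 3 groups of a line, the fifth place went to ADAM19 in 786-M1A (20.1, 11.5 and 33.4 TPM) and to ADAMTS9 in OS-LM1 (14.4, 19.8 and 22.8 TPM).

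**Figure D1:**
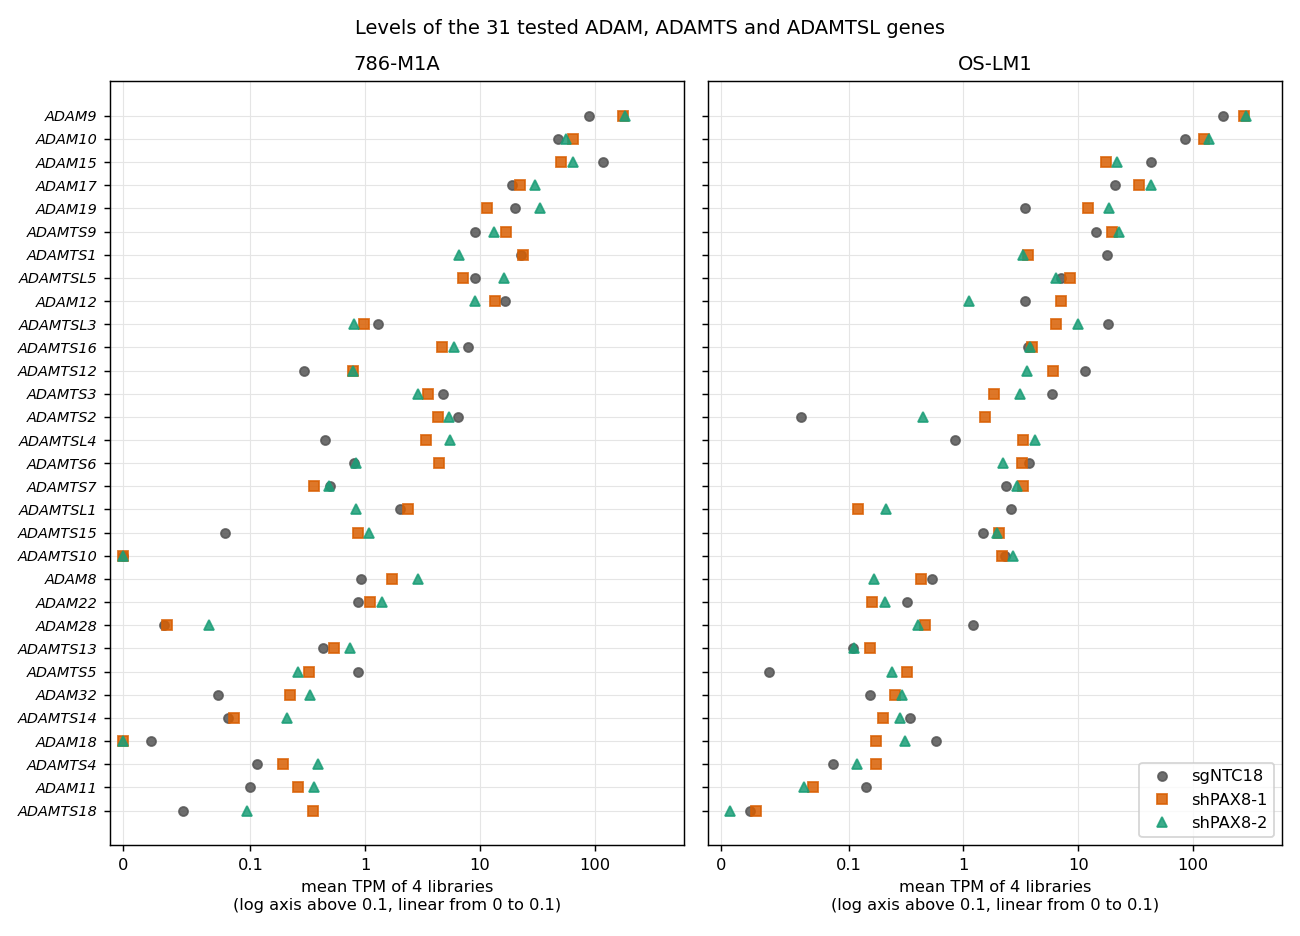
Mean TPM of 4 libraries for the 31 members tested in at least 1 comparison, on an axis that is logarithmic above 0.1 TPM and linear below it, with 786-M1A on the left, OS-LM1 on the right and the construct given by colour and shape. ADAM9 leads in every group but the 786-M1A sgNTC18 group, where ADAM15 does, and ADAMTS10 sits at 0 in all 786-M1A groups and between 2.17 and 2.72 TPM in OS-LM1.

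Comparisons were made on counts, with values per library given as CPM after TMM scaling, the share of a library's counts that fell on a gene, as log2 fold changes with their standard error (SE) after ±, and with edgeR's quasi-likelihood test. A gene was called when its Benjamini-Hochberg adjusted p over all genes tested was under 0.05. The filter on low counts kept 26 members in 786-M1A and 28 in OS-LM1, 23 of them in both, and 31 when all 24 libraries were fitted together.

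With shPAX8-1 in 786-M1A, 12 of the 26 tested members were higher than with sgNTC18, where 36.1% of all genes were, and 4 were lower, where 34.5% of all genes were. With shPAX8-2, 14 were higher and 7 lower, against 31.5% and 30.9% of all genes. In OS-LM1, 10 of 28 were higher and 11 lower with shPAX8-1, against 35.6% and 35.8% of all genes, and 10 were higher and 11 lower with shPAX8-2, against 34.3% and 34.1%. The members' median log2 fold changes were 0.42 and 0.74 in 786-M1A and 0.14 and 0.01 in OS-LM1, beside 0.03, 0.02, -0.01 and -0.01 over all genes tested. In bulk libraries such as these, fewer cells that express a gene and less RNA per cell cannot be told apart. In OS-LM1 the shares of members called were thus near those of all genes. The 2 comparisons of a line share their sgNTC18 libraries. Of the 23 members tested in both lines, 5 were higher and 1 lower in all 4 comparisons, where 12.5% and 14.6% of the 13737 genes tested in both lines were. The 5 were ADAM9, ADAM10, ADAM17, ADAMTS9 and ADAMTSL4, and the 1 was ADAM15. With each library's trend with GC content removed, those higher in all 4 were ADAMTS2, ADAMTS9, ADAMTS15 and ADAMTSL4, and those lower were ADAM15, ADAMTS3 and ADAMTSL3.

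**Figure D2:**
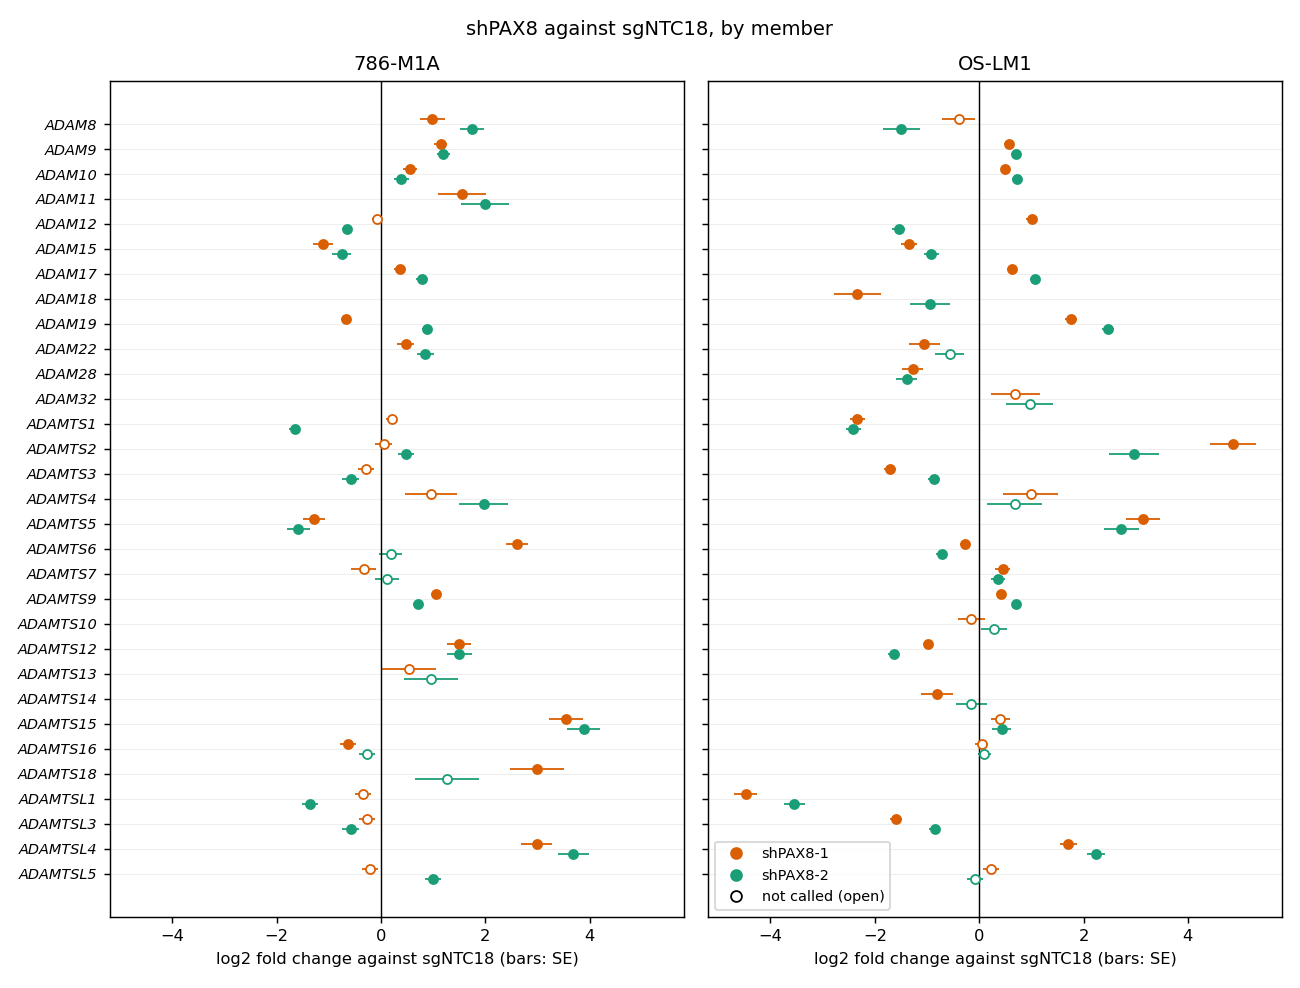
Log2 fold changes of each tested member against sgNTC18, with SE as bars, in 786-M1A (left) and OS-LM1 (right). Filled points were called and open points were not. ADAM9, ADAM10, ADAM17, ADAMTS9 and ADAMTSL4 lie to the right of 0 and ADAM15 to the left in both panels, whereas ADAMTS5, ADAMTS12 and ADAM8 change sides.

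Among the ADAMs with a complete catalytic site, the broadly expressed ADAM9, ADAM10 and ADAM17 were higher and ADAM15 was lower in all 4 comparisons. ADAM9, which sheds growth factors such as HB-EGF in model systems, stood at 225, 170.2, 192 and 191 CPM in the sgNTC18 libraries of 786-M1A, 355, 371, 477 and 491 CPM with shPAX8-1 and 419.8, 395, 484 and 451 CPM with shPAX8-2. In OS-LM1 it stood at 435, 375, 454 and 428 CPM with sgNTC18, 615, 709, 664 and 558 CPM with shPAX8-1 and 710.1, 754, 615 and 666 CPM with shPAX8-2. No shPAX8 library overlapped the sgNTC18 libraries of its line. The log2 fold changes were 1.15 ± 0.12 (adjusted p = 9.15e-07) and 1.19 ± 0.12 (adjusted p = 1.07e-06) in 786-M1A, and 0.57 ± 0.09 (adjusted p = 2.49e-05) and 0.71 ± 0.09 (adjusted p = 1.93e-06) in OS-LM1. When each library's trend with GC content was removed, the OS-LM1 shPAX8-1 value was 0.17 and was no longer called (adjusted p = 0.0824). ADAM9 overlaps TM2D2, which was listed at 15.4 to 50.5 TPM over all libraries.

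ADAM10, the protease that starts ligand-induced Notch cleavage and sheds cadherins, was higher as well. Its levels were 146, 117, 123 and 132 CPM with sgNTC18, 147, 173, 218 and 215 CPM with shPAX8-1 and 156, 146, 202 and 166 CPM with shPAX8-2 in 786-M1A. The OS-LM1 levels were 251, 226, 266 and 244 CPM with sgNTC18, 347, 349, 388 and 335 CPM with shPAX8-1 and 406, 445, 385 and 379.7 CPM with shPAX8-2. In CPM the groups did not overlap in either line, although the lowest shPAX8 libraries of 786-M1A sat within about 1 CPM of the highest sgNTC18 library. In TPM the 786-M1A groups overlapped. Control replicate 1 (sgNTC18) held 56.49 TPM, above shPAX8-1 replicate 1 (50.01) and shPAX8-2 replicates 1, 2 and 4 (54.04, 48.42 and 55.14). Log2 fold changes were 0.56 ± 0.14 (adjusted p = 0.00193) and 0.39 ± 0.14 (adjusted p = 0.0221) in 786-M1A, and 0.50 ± 0.08 (adjusted p = 2.38e-05) and 0.72 ± 0.08 (adjusted p = 3.01e-07) in OS-LM1. With the GC trend removed, the shPAX8-1 values were 0.02 (adjusted p = 0.776) in 786-M1A and 0.10 (adjusted p = 0.209) in OS-LM1, and with only replicates 1 and 2 of the 786-M1A shPAX8-1 group the value was 0.30 (adjusted p = 0.0524). The shPAX8-2 value in 786-M1A was 0.33 with no filter beyond 1 count (adjusted p = 0.0521). It was 0.29 to 0.36 and not called without sgNTC18 replicate 2, sgNTC18 replicate 3 or shPAX8-2 replicate 3 (adjusted p = 0.0586 to 0.0793). ADAM10 overlaps the pseudogene HSP90AB4P.

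ADAM17 is the protease that releases tumour necrosis factor, amphiregulin and TGF-alpha from the cell surface. Its sgNTC18 libraries of 786-M1A held 42.6, 31.7, 35.3 and 36.4 CPM, those with shPAX8-1 46.6, 39.1, 50.3 and 49.5 CPM and those with shPAX8-2 61.8, 61.8, 62.2 and 62.9 CPM. The OS-LM1 libraries held 45.3, 38.1, 43.8 and 43.1 CPM with sgNTC18, 58.8, 71.2, 74.2 and 61.9 CPM with shPAX8-1 and 90.2, 96.5, 85.8 and 83.6 CPM with shPAX8-2. In CPM, 1 shPAX8-1 library of 786-M1A, replicate 2, lay within the sgNTC18 range, and all other shPAX8 libraries lay above the controls of their line. In TPM, shPAX8-1 replicates 1, 2 and 4 of 786-M1A (22.55, 19.37 and 22.88) lay within the sgNTC18 range of that line (16.3 to 23.44). The log2 fold changes were 0.37 ± 0.11 (adjusted p = 0.00862) and 0.79 ± 0.11 (adjusted p = 2.23e-05) in 786-M1A, and 0.62 ± 0.09 (adjusted p = 7.89e-06) and 1.07 ± 0.09 (adjusted p = 6.65e-09) in OS-LM1. The direction of the 786-M1A shPAX8-1 value turned to -0.12 with the GC trend removed (adjusted p = 0.277), and with only replicates 1 and 2 of that group it was 0.23 (adjusted p = 0.116). ADAM17 overlaps IAH1, listed at 99.7 to 229 TPM.

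ADAM15, which carries an integrin-binding RGD sequence in its disintegrin domain, was the member that fell in all 4 comparisons. It measured 149.7, 212, 195 and 169.8 CPM with sgNTC18, 113, 97.1, 62.2 and 57.8 CPM with shPAX8-1 and 109, 114, 94.0 and 107 CPM with shPAX8-2 in 786-M1A, and 76.2, 69.1, 62.1 and 64.0 CPM with sgNTC18, 24.5, 32.2, 23.3 and 28.5 CPM with shPAX8-1 and 34.8, 25.0, 48.3 and 34.5 CPM with shPAX8-2 in OS-LM1. Every shPAX8 library lay below every sgNTC18 library of its line, and the 786-M1A shPAX8-1 libraries 3 and 4 lay below 1 and 2. Log2 fold changes were -1.12 ± 0.19 (adjusted p = 7.16e-05) and -0.75 ± 0.19 (adjusted p = 0.00248) in 786-M1A, and -1.35 ± 0.15 (adjusted p = 1.62e-07) and -0.92 ± 0.15 (adjusted p = 1.95e-05) in OS-LM1.

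**Figure D3:**
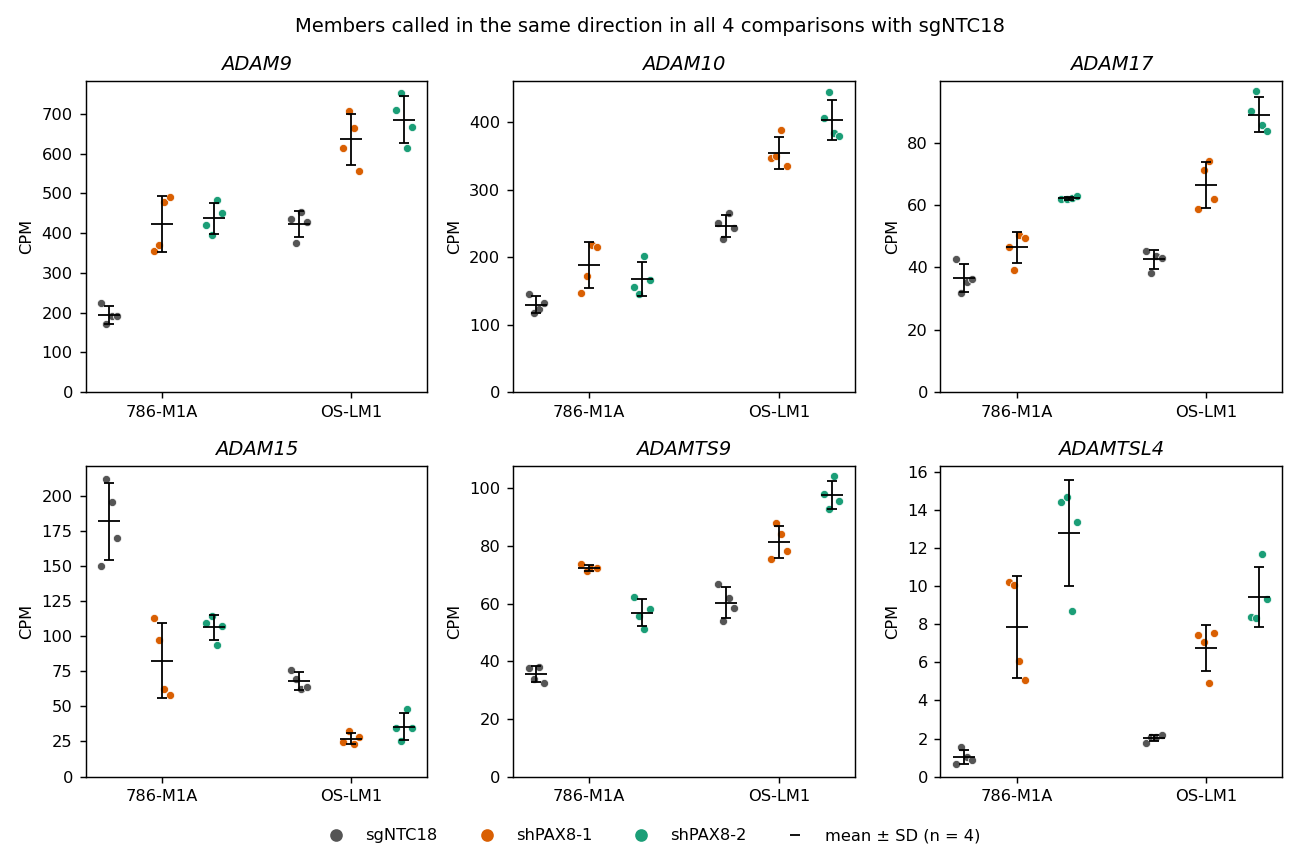
CPM in each of the 24 libraries for the 6 members called in the same direction in all 4 comparisons with sgNTC18, with points for libraries and black marks for the mean and SD of 4. ADAM15 is below its sgNTC18 libraries in every shPAX8 library of both lines, and ADAM9 and ADAMTSL4 are above theirs.

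The 250 bases before the annotated start of ADAM10, ADAM17, ADAM15 and ADAMTSL4 are shown because these members were called in all 4 comparisons with sgNTC18. They are taken from RefSeq on GRCh38.p14 and read along the gene's strand, with ACGTG and GCGTG, the letters at the core of hypoxia response elements, in capitals in either orientation.
ADAM10, chr15:58749708-58749957, minus strand: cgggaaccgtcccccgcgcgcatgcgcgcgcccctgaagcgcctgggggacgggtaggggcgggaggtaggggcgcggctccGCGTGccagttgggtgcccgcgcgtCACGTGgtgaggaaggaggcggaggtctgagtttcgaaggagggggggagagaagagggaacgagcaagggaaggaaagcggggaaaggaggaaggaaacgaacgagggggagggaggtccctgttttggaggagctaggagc
ADAM17, chr2:9555831-9556080, minus strand: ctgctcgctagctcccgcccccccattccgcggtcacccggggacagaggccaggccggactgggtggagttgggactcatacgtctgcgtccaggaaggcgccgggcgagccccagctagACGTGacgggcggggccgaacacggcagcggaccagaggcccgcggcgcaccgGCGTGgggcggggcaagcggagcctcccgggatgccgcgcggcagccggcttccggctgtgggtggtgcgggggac
ADAM15, chr1:155051066-155051315, plus strand: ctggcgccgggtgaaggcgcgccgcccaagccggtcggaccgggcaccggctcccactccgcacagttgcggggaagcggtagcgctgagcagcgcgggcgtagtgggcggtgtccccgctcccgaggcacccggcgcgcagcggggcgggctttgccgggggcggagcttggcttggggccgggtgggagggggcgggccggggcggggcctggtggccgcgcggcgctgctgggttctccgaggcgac
ADAMTSL4, chr1:150549158-150549407, plus strand: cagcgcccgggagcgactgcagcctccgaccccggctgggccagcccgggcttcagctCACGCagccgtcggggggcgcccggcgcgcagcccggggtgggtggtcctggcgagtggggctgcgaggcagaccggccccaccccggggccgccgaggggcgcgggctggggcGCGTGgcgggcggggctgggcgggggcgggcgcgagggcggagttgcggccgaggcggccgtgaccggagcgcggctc
Such windows were on hand for 29 of the 47 members, and not for ADAM9 and ADAMTS9, the others called in all 4 comparisons. ACGTG, searched on both strands as ACGTG and CACGT, stood in 7 of the 29 windows, among them ADAM10 and ADAM17, and in 18.68% of 27305 windows of the same length over all genes. GCGTG, also searched as CACGC, stood in 10 of the 29, among them ADAM10, ADAM17 and ADAMTSL4, and in 31.91% of all windows. The window of ADAM15 held neither. GCGTGAC, letters found in the paired-domain motif of PAX proteins and overlapping GCGTG, stood in 1 of the 29, that of ADAM30, and in 2.27% of all windows. In CACGTG, as in the ADAM10 window, the 2 orientations of ACGTG overlap. These matches are letters in a window and do not show binding.

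The remaining catalytic ADAMs moved in different directions by line and construct. ADAM8, known from leukocytes and invasive tumour cells, stood at 1.23, 1.93, 1.84 and 1.49 CPM with sgNTC18 in 786-M1A, 4.13, 3.82, 2.11 and 2.54 CPM with shPAX8-1 and 6.03, 5.83, 4.48 and 5.07 CPM with shPAX8-2. In OS-LM1 it stood at 0.733, 1.17, 0.946 and 0.874 CPM with sgNTC18, 0.535, 1.01, 0.522 and 0.835 CPM with shPAX8-1 and 0.280, 0.179, 0.417 and 0.352 CPM with shPAX8-2. The 786-M1A groups with shPAX8 lay above their controls, by 0.98 ± 0.24 (adjusted p = 0.0016) and 1.74 ± 0.23 (adjusted p = 1.20e-05), while in OS-LM1 the shPAX8-2 libraries lay below theirs, at -1.49 ± 0.35 (adjusted p = 8.90e-04), and the shPAX8-1 libraries overlapped them (-0.40 ± 0.32, adjusted p = 0.281). With only replicates 3 and 4 of the 786-M1A shPAX8-1 group the value there was 0.53 (adjusted p = 0.0621).

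ADAM12, a protease linked to myoblast fusion and to growth factor shedding, went opposite ways with the constructs in OS-LM1. Its OS-LM1 levels were 15.9, 14.3, 18.3 and 14.0 CPM with sgNTC18, 31.5, 30.8, 33.7 and 31.9 CPM with shPAX8-1 and 4.27, 4.78, 6.03 and 5.89 CPM with shPAX8-2, 3 groups with no overlap. It rose by 1.01 ± 0.11 (adjusted p = 1.11e-07) with shPAX8-1 and changed by -1.54 ± 0.12 (adjusted p = 1.12e-09) with shPAX8-2. In 786-M1A it was at 66.3, 67.4, 70.6 and 63.8 CPM with sgNTC18, 60.5, 62.0, 69.3 and 58.8 CPM with shPAX8-1 and 43.0, 43.5, 45.6 and 35.7 CPM with shPAX8-2, and only the shPAX8-2 difference was called (-0.66 ± 0.10, adjusted p = 4.77e-05, beside -0.08 ± 0.10, adjusted p = 0.511 with shPAX8-1).

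ADAM19, which sheds neuregulins in the developing heart and nerve, was the reverse case in 786-M1A. The libraries there held 69.9, 74.8, 73.7 and 66.0 CPM with sgNTC18, 45.6, 48.4, 41.8 and 40.5 CPM with shPAX8-1 and 127, 127, 125 and 135 CPM with shPAX8-2, so that shPAX8-1 lay below and shPAX8-2 above the controls (-0.67 ± 0.09, adjusted p = 9.14e-06, and 0.88 ± 0.09, adjusted p = 9.04e-07). In OS-LM1 both constructs were higher, at 44.6, 48.4, 38.6 and 46.6 CPM and 68.9, 56.5, 80.9 and 80.4 CPM against 13.6, 13.5, 13.1 and 11.7 CPM with sgNTC18 (1.75 ± 0.11, adjusted p = 7.50e-11, and 2.47 ± 0.12, adjusted p = 8.27e-13).

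ADAM28, described in lymphocytes and epididymis, passed the filter only in OS-LM1, where it was lower with both constructs, at 1.55, 1.75, 1.73 and 1.94 CPM with shPAX8-1 and 1.82, 1.97, 1.25 and 1.44 CPM with shPAX8-2 against 3.38, 4.25, 5.31 and 3.62 CPM with sgNTC18. Its log2 fold changes were -1.27 ± 0.20 (adjusted p = 1.43e-05) and -1.39 ± 0.20 (adjusted p = 6.25e-06). In 786-M1A it lay between 0 and 0.324 CPM in all 12 libraries. ADAM20, ADAM21, ADAM30, ADAM33 and ADAMDEC1 did not pass the filter in either line, at no more than 0.28 TPM in any library. ADAM20 and ADAM21 are near copies of each other, so their counts may be split.

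Of the 8 ADAMs without a complete catalytic site, ADAM22 and ADAM11 were tested in 786-M1A and were higher there with both constructs. ADAM22, a neuronal receptor of the secreted protein LGI1, stood at 5.26, 4.26, 4.14 and 3.60 CPM with sgNTC18, 4.44, 6.45, 6.44 and 6.35 CPM with shPAX8-1 and 7.91, 7.01, 8.54 and 7.26 CPM with shPAX8-2 in 786-M1A. The shPAX8-2 libraries lay above all controls and 1 shPAX8-1 library, replicate 1, within them, with log2 fold changes of 0.48 ± 0.16 (adjusted p = 0.0171) for shPAX8-1 and 0.85 ± 0.16 (adjusted p = 3.69e-04) for shPAX8-2. The shPAX8-1 value was 0.05 with the GC trend removed (adjusted p = 0.742), 0.40 with no filter beyond 1 count (adjusted p = 0.0608) and 0.34 with only replicates 1 and 2 (adjusted p = 0.145), and was 0.40 without sgNTC18 replicate 4 (adjusted p = 0.0612). In OS-LM1 ADAM22 held 1.10 to 2.11 CPM with sgNTC18, 0.531 to 1.06 CPM with shPAX8-1 and 0.855 to 1.47 CPM with shPAX8-2, and the shPAX8-1 difference was called at -1.05 ± 0.29 (adjusted p = 0.00326). ADAM11 reached no more than 1.31 CPM, with 1.55 ± 0.46 and 1.99 ± 0.46 in 786-M1A, and the shPAX8-1 value was 0.99 with only replicates 3 and 4 (adjusted p = 0.14). ADAM18, a sperm-associated member, held 108 counts in the 4 OS-LM1 sgNTC18 libraries together, at 0.733, 0.967, 0.807 and 0.603 CPM. It was lower with shPAX8-1, at 0.0486, 0.212, 0.120 and 0.228 CPM (-2.33 ± 0.45, adjusted p = 1.16e-04), and with shPAX8-2, at 0.210, 0.657, 0.417 and 0.320 CPM (-0.95 ± 0.38, adjusted p = 0.0337), where 1 library lay within the controls. The shPAX8-2 call was lost with DESeq2 (-0.96, adjusted p = 0.0631), with no filter beyond 1 count (-0.98, adjusted p = 0.0521) and with transcript length as an offset (-0.86, adjusted p = 0.0641). It was also lost without any one of sgNTC18 replicates 2 and 3 and shPAX8-2 replicates 1, 3 and 4 (-0.98 to -0.80, adjusted p = 0.0597 to 0.0962). ADAM32 was tested in OS-LM1 and not called, with 0.69 ± 0.46 and 0.97 ± 0.45. ADAM2, ADAM7, ADAM23 and ADAM29 were detected in no more than 4 libraries each, and the pseudogene ADAM5 in 3.

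The ADAMTS proteoglycanases cut aggrecan, versican and related proteoglycans of the matrix. Of the 7 on the list, 5 were tested in each line. ADAMTS9, which also has a part in forming the primary cilium, was higher in all 4 comparisons. It was at 37.5, 33.9, 38.0 and 32.5 CPM with sgNTC18 in 786-M1A, 73.8, 71.4, 72.3 and 72.4 CPM with shPAX8-1 and 62.5, 55.7, 51.2 and 58.0 CPM with shPAX8-2. The OS-LM1 libraries held 66.7, 54.0, 62.0 and 58.5 CPM with sgNTC18, 75.6, 87.8, 84.3 and 78.4 CPM with shPAX8-1 and 98.1, 93.0, 104 and 95.7 CPM with shPAX8-2, again without overlap with the controls. Log2 fold changes were 1.05 ± 0.10 and 0.70 ± 0.10 in 786-M1A and 0.41 ± 0.08 and 0.70 ± 0.08 in OS-LM1, with adjusted p-values of 1.51e-07, 1.57e-05, 2.04e-04 and 4.03e-07. The antisense gene ADAMTS9-AS2 overlaps it and reached no more than 1.98 TPM.

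ADAMTS15 gave the largest rise of any member in 786-M1A. It was near the limit of detection with sgNTC18, at 0.452, 0.221, 0.129 and 0.176 CPM, and held 2.88, 3.58, 2.29 and 2.60 CPM with shPAX8-1 and 2.90, 3.29, 4.14 and 4.13 CPM with shPAX8-2. The log2 fold changes were 3.55 ± 0.32 (adjusted p = 1.31e-07) and 3.88 ± 0.32 (adjusted p = 9.58e-08). In OS-LM1 the control level was already 5.38, 5.74, 3.98 and 4.31 CPM, and the shPAX8 libraries overlapped it at 5.10, 6.67, 7.06 and 7.29 CPM and 6.51, 5.13, 8.74 and 5.44 CPM (0.40 ± 0.18, adjusted p = 0.0534, and 0.43 ± 0.18, adjusted p = 0.043). The shPAX8-2 call there was lost with the replicate number as a block, with no filter beyond 1 count and in one fit of all 24 libraries (adjusted p = 0.0837, 0.0548 and 0.0627). Without shPAX8-2 replicate 3 the value was 0.23 (adjusted p = 0.249), and the call was also lost without any one of sgNTC18 replicates 3 and 4, shPAX8-2 replicate 1 and shPAX8-1 replicates 2 and 3.

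ADAMTS5, a main aggrecanase of cartilage, went opposite ways in the lines. In 786-M1A it fell from 3.98, 4.20, 5.27 and 4.74 CPM with sgNTC18 to 1.57, 1.79, 1.93 and 2.10 CPM with shPAX8-1 and 2.22, 1.19, 1.33 and 1.20 CPM with shPAX8-2. In OS-LM1 it rose from 0.197, 0.146, 0.223 and 0.211 CPM to 1.70, 1.59, 2.17 and 1.63 CPM and 1.47, 1.85, 1.23 and 0.801 CPM. The shPAX8 groups did not overlap their controls in either line, and with shPAX8 the difference between the lines was not called (-0.13 ± 0.17, adjusted p = 0.496). The log2 fold changes were -1.28 ± 0.21 and -1.59 ± 0.22 in 786-M1A and 3.14 ± 0.33 and 2.72 ± 0.34 in OS-LM1, all called.

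ADAMTS1, which cuts versican around the ovulating follicle, fell with both constructs in OS-LM1 and with shPAX8-2 alone in 786-M1A. OS-LM1 libraries held 51.7, 43.4, 50.2 and 43.8 CPM with sgNTC18, 9.52, 9.47, 11.2 and 7.93 CPM with shPAX8-1 and 9.52, 10.7, 9.47 and 5.99 CPM with shPAX8-2 (-2.33 ± 0.15, adjusted p = 4.71e-11, and -2.41 ± 0.15, adjusted p = 4.27e-11). In 786-M1A the values were 58.0, 57.3, 59.2 and 53.4 CPM with sgNTC18, 62.0, 56.6, 73.1 and 66.5 CPM with shPAX8-1 and 17.0, 18.2, 19.3 and 17.0 CPM with shPAX8-2, where shPAX8-1 overlapped the controls (0.20 ± 0.10, adjusted p = 0.0856) and shPAX8-2 lay far below them (-1.65 ± 0.11, adjusted p = 7.94e-09). ADAMTS4 reached no more than 1.31 CPM and was called with shPAX8-2 in 786-M1A (1.97 ± 0.47, adjusted p = 0.0021). ADAMTS8 and ADAMTS20 did not pass the filter.

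The procollagen N-propeptidases ADAMTS2, ADAMTS3 and ADAMTS14 trim fibrillar procollagens, and ADAMTS3 also activates the lymphatic growth factor VEGF-C. ADAMTS2 was nearly absent from OS-LM1 with sgNTC18, at 0, 0.146, 0.0556 and 0.121 CPM, and reached 2.19, 2.33, 2.33 and 3.11 CPM with shPAX8-1 and 0.700, 0.537, 0.876 and 0.448 CPM with shPAX8-2 (4.87 ± 0.44, adjusted p = 8.40e-09, and 2.97 ± 0.49, adjusted p = 2.25e-05). In 786-M1A the same gene held 9.82, 9.73, 10.3 and 9.31 CPM with sgNTC18, 12.1, 11.8, 7.46 and 8.56 CPM with shPAX8-1 and 14.3, 15.4, 11.2 and 12.9 CPM with shPAX8-2, with log2 fold changes of 0.05 ± 0.16 and 0.48 ± 0.16. The mean transcript length that RSEM assigned to ADAMTS2 there went from 2819.9 bases with sgNTC18 to 4009.9 and 4259. With that length as an offset, the shPAX8-2 value turned to -0.11 (adjusted p = 0.611), and on the TPM scale the means were 6.47, 4.33 and 5.38. Without shPAX8-2 replicate 2 the shPAX8-2 value was 0.41 (adjusted p = 0.0605). A direction for ADAMTS2 in 786-M1A therefore depends on the unit.

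ADAMTS3 was lower with both constructs in OS-LM1, at 5.05, 6.77, 6.30 and 6.11 CPM with shPAX8-1 and 10.3, 11.9, 10.5 and 10.0 CPM with shPAX8-2 against 21.2, 16.7, 20.5 and 19.9 CPM with sgNTC18, 3 groups without overlap (-1.71 ± 0.12, adjusted p = 2.00e-10, and -0.87 ± 0.11, adjusted p = 1.64e-06). Its 786-M1A values were 16.3, 13.3, 15.7 and 15.0 CPM with sgNTC18, 9.78, 12.3, 12.2 and 14.2 CPM with shPAX8-1 and 8.31, 8.31, 12.1 and 11.1 CPM with shPAX8-2, called with shPAX8-2 only (-0.29 ± 0.15, and -0.58 ± 0.16). ADAMTS14 passed the filter in OS-LM1 at 0.845 to 1.18 CPM with sgNTC18 and was called with shPAX8-1 (-0.81 ± 0.31, adjusted p = 0.0246). That call was lost with the GC trend removed, where the value was -0.33 (adjusted p = 0.334), and in one fit of all 24 libraries, where it was -0.78 (adjusted p = 0.0773). It was lost as well without any one of replicates 2 and 4 of either group (-0.76 to -0.72, adjusted p = 0.0583 to 0.0691).

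Among the other ADAMTS proteases, ADAMTS12, which cuts cartilage oligomeric matrix protein, was higher in 786-M1A and lower in OS-LM1. It held 0.698, 0.553, 0.971 and 0.966 CPM with sgNTC18, 2.41, 2.59, 1.63 and 2.38 CPM with shPAX8-1 and 2.50, 2.00, 2.32 and 2.27 CPM with shPAX8-2 in 786-M1A (1.49 ± 0.24, adjusted p = 4.66e-05, and 1.50 ± 0.24, adjusted p = 7.28e-05). OS-LM1 held 35.9, 32.6, 30.5 and 31.3 CPM with sgNTC18, 16.4, 17.6, 16.8 and 16.4 CPM with shPAX8-1 and 10.0, 10.3, 12.1 and 9.25 CPM with shPAX8-2 (-0.98 ± 0.10, adjusted p = 4.67e-08, and -1.63 ± 0.10, adjusted p = 6.46e-11). The groups did not overlap with their controls in either line, and the OS-LM1 levels stayed above those of 786-M1A throughout.

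ADAMTS6, a relative of ADAMTS10 that acts on fibrillin and focal adhesions, rose with shPAX8-1 alone in 786-M1A. Its libraries held 4.23, 2.16, 2.94 and 3.16 CPM with sgNTC18, 16.3, 16.8, 21.9 and 20.8 CPM with shPAX8-1 and 2.50, 3.18, 4.31 and 4.27 CPM with shPAX8-2, and shPAX8-2 overlapped the controls (2.61 ± 0.21, adjusted p = 3.74e-08 for shPAX8-1, and 0.19 ± 0.22, adjusted p = 0.478 for shPAX8-2). In OS-LM1 it held 16.8, 15.8, 15.5 and 14.5 CPM with sgNTC18, 13.1, 13.7, 13.4 and 12.7 CPM with shPAX8-1 and 10.3, 9.19, 9.58 and 8.93 CPM with shPAX8-2, both constructs below the controls (-0.27 ± 0.10, and -0.72 ± 0.10), with the shPAX8-1 call lost in one fit of all 24 libraries (adjusted p = 0.144). That call was also lost without any one of sgNTC18 replicates 1, 2 and 3 and shPAX8-1 replicate 4 (-0.25 to -0.21, adjusted p = 0.0563 to 0.0982).

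Smaller or weaker differences were seen for the rest of this group. ADAMTS7, a vascular protease whose near copy ADAMTS7P1 may share reads, was higher in OS-LM1 with shPAX8-1 (0.45 ± 0.14, adjusted p = 0.00754) and shPAX8-2 (0.36 ± 0.14, adjusted p = 0.0291) and was not called in 786-M1A. The shPAX8-2 call was lost with no filter beyond 1 count (adjusted p = 0.0561) and with the replicate number as a block (adjusted p = 0.0527). It was lost too without any one of sgNTC18 replicates 2, 3 and 4 and shPAX8-2 replicates 1 and 3 (0.28 to 0.36, adjusted p = 0.0545 to 0.108). ADAMTS16, a gene of developing kidney and gonad, was lower with shPAX8-1 in 786-M1A, at 11.5 to 17.6 CPM against 18.2 to 23.2 CPM (-0.63 ± 0.16, adjusted p = 0.00216). ADAMTS18 was higher with shPAX8-1 in 786-M1A, at 0.575 to 1.75 CPM against 0.0324 to 0.329 CPM (2.99 ± 0.52, adjusted p = 1.01e-04). ADAMTS13, the protease of von Willebrand factor, was tested in 786-M1A and not called (0.53 ± 0.52, and 0.96 ± 0.51), and it overlaps REXO4. ADAMTS10 was tested in OS-LM1 and not called (-0.15 ± 0.25, and 0.28 ± 0.24). ADAMTS17 and ADAMTS19 did not pass the filter.

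The ADAMTS-like genes held the largest fall and one of the shared rises. ADAMTSL4, which binds fibrillin and in which recessive mutations displace the lens, rose with both constructs in both lines. In 786-M1A it went from 0.657, 1.55, 1.04 and 0.878 CPM with sgNTC18 to 10.2, 10.1, 6.08 and 5.08 CPM with shPAX8-1 and 14.5, 14.7, 8.70 and 13.4 CPM with shPAX8-2. In OS-LM1 it went from 1.77, 2.08, 2.06 and 2.17 CPM to 7.43, 7.09, 4.94 and 7.55 CPM and 8.40, 8.36, 11.7 and 9.32 CPM. Every shPAX8 library lay above every control library of its line, by 2.98 ± 0.30 (adjusted p = 3.78e-07) and 3.68 ± 0.30 (adjusted p = 7.95e-08) in 786-M1A and 1.71 ± 0.17 (adjusted p = 2.52e-08) and 2.24 ± 0.17 (adjusted p = 6.37e-10) in OS-LM1. The overlapping ADAMTSL4-AS1 reached no more than 1.23 TPM.

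ADAMTSL1 fell most in OS-LM1, from 14.4, 10.1, 13.8 and 8.50 CPM with sgNTC18 to 0.632, 0.582, 0.401 and 0.531 CPM with shPAX8-1 and 0.770, 0.955, 1.00 and 1.15 CPM with shPAX8-2 (-4.47 ± 0.22, adjusted p = 1.19e-12, and -3.55 ± 0.20, adjusted p = 1.14e-11). In 786-M1A it held 7.93, 7.85, 9.97 and 7.95 CPM with sgNTC18, 5.80, 7.77, 6.14 and 6.46 CPM with shPAX8-1 and 2.73, 3.40, 3.07 and 3.73 CPM with shPAX8-2, with the shPAX8-2 difference called (-1.36 ± 0.16, adjusted p = 3.16e-06) and the shPAX8-1 difference just short of the threshold (-0.34 ± 0.15, adjusted p = 0.0502). Its assigned transcript length in 786-M1A was 7750.0 bases with sgNTC18, 4839 with shPAX8-1 and 6674 with shPAX8-2, so that its TPM means were 2.00, 2.34 and 0.835.

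ADAMTSL3 was lower in OS-LM1, at 23.0, 31.2, 28.3 and 21.7 CPM with shPAX8-1 and 46.0, 40.0, 44.9 and 39.4 CPM with shPAX8-2 against 79.4, 79.4, 74.5 and 74.3 CPM (-1.59 ± 0.11, adjusted p = 1.83e-10, and -0.85 ± 0.11, adjusted p = 9.66e-07), and in 786-M1A it was called with shPAX8-2 (-0.58 ± 0.16, adjusted p = 0.00595), with 2.70 to 3.93 CPM against 4.22 to 5.67 CPM. ADAMTSL5 rose with shPAX8-2 in 786-M1A, to 29.0, 31.1, 23.8 and 24.9 CPM from 10.8, 16.4, 14.3 and 14.0 CPM (0.99 ± 0.15, adjusted p = 3.88e-05), whereas the shPAX8-1 libraries overlapped the controls at 13.0, 13.2, 9.75 and 11.0 CPM. ADAMTSL2 did not pass the filter.

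The 2 constructs were compared directly, because a difference between them does not use the sgNTC18 level as its baseline. The sgNTC18 libraries still entered the filter, the scaling and the estimate of the spread. The ADAM15 call between constructs in OS-LM1 was lost without any one of the sgNTC18 replicates (adjusted p = 0.05585 to 0.0631). So was that of ADAMTS2 in 786-M1A (adjusted p = 0.0515 to 0.0548). Both were also lost without some shPAX8 libraries. In 786-M1A, 6 of 26 members were higher and 6 lower with shPAX8-1 than with shPAX8-2, against 24.2% and 22.9% of all genes. In OS-LM1, 5 of 28 were higher and 9 lower, against 12.4% and 16.7% of all genes. The members' median was -0.34 in 786-M1A and -0.18 in OS-LM1, beside -0.02 and -0.03 over all genes. The 12 calls in 786-M1A were 8 with only replicates 1 and 2 of shPAX8-1 and 18 with only replicates 3 and 4. The 4 largest differences in 786-M1A among members at 1 TPM or more were ADAMTS6 (2.42 ± 0.21, adjusted p = 1.78e-06), ADAMTS1 (1.85 ± 0.11, adjusted p = 5.77e-08), ADAM19 (-1.54 ± 0.09, adjusted p = 6.17e-08) and ADAMTSL5 (-1.21 ± 0.15, adjusted p = 3.95e-05). In OS-LM1 they were ADAM12 (2.55 ± 0.12, adjusted p = 2.12e-11), ADAMTS2 (1.90 ± 0.35, adjusted p = 3.95e-04), ADAMTSL1 (-0.93 ± 0.26, adjusted p = 0.0124) and ADAMTS3 (-0.85 ± 0.12, adjusted p = 3.94e-05), of which the ADAMTSL1 call was lost without shPAX8-2 replicate 4 (-0.81, adjusted p = 0.0531) or shPAX8-1 replicate 3 (-0.78, adjusted p = 0.0611). None of these 8 pairs of groups overlapped, but they were chosen as the largest called differences. The share of pairs without overlap over all genes was not computed. ADAM17 was lower with shPAX8-1 than with shPAX8-2 in both lines (-0.42 ± 0.11, and -0.45 ± 0.09), as was ADAM19. ADAM10 and ADAM9 were not called between constructs in either line, at 0.17 ± 0.14 and -0.22 ± 0.08 for ADAM10 and -0.05 ± 0.12 and -0.14 ± 0.09 for ADAM9. Fold changes between the constructs in 786-M1A ran with the GC content of the transcript over all genes (Spearman's rho = -0.557, a description across genes, which are not replicates). The trend was not confined to this comparison. For shPAX8-1 and shPAX8-2 against sgNTC18, rho was -0.363 and -0.0984 in 786-M1A and -0.321 and -0.275 in OS-LM1. It was -0.207 between the constructs in OS-LM1, and -0.245 (sgNTC18) and -0.202 (shPAX8) between the lines. The ADAM8 and ADAMTSL4 differences between the constructs in 786-M1A (-0.76 and -0.70) were no longer called with the GC trend removed (-0.23, adjusted p = 0.218, and -0.19, adjusted p = 0.269) or with only replicates 1 and 2 of shPAX8-1 (-0.43, adjusted p = 0.157, and -0.34, adjusted p = 0.282), and were -1.21 and -1.22 with only replicates 3 and 4. The ADAMTSL4 call was also lost without any one of shPAX8-2 replicates 1, 2 and 4 and shPAX8-1 replicates 3 and 4 (-0.68 to -0.54, adjusted p = 0.0692 to 0.0893).

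**Figure D4:**
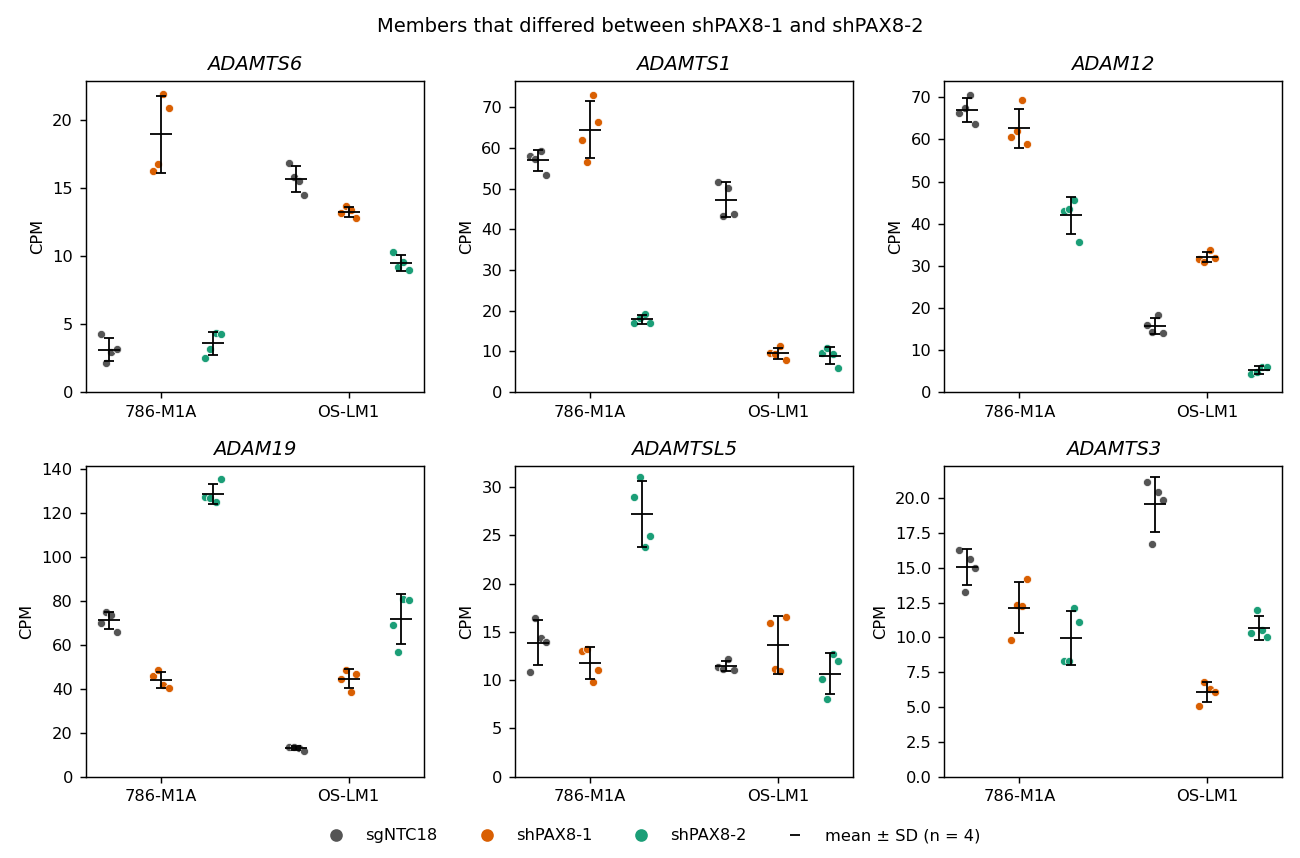
CPM in each library for 6 members that differed between shPAX8-1 and shPAX8-2 in at least 1 line, with points for libraries and black marks for the mean and SD of 4. ADAMTS6 is high in the 786-M1A shPAX8-1 libraries only among that line's groups, and ADAM12 lies above its OS-LM1 controls with shPAX8-1 and below them with shPAX8-2.

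The lines differed in which members they expressed. In the sgNTC18 libraries, 15 of 31 members were higher in OS-LM1 than in 786-M1A and 9 lower, against 32.0% and 31.0% of all genes, with a median of 0.47 beside 0.01. In the shPAX8 libraries, 13 were higher and 16 lower, against 41.7% and 41.5%, with a median of -0.33 beside 0.00 (0.000454 before rounding). The medians were the same with the members at 0 set to their lower bounds. ADAMTS10, a fibrillin-associated protease, was counted at 0 in all 12 libraries of 786-M1A and held 6.59, 6.30, 3.92 and 5.57 CPM with sgNTC18, 4.47, 6.24, 4.21 and 5.69 CPM with shPAX8-1 and 7.77, 3.28, 9.78 and 5.99 CPM with shPAX8-2 in OS-LM1. Against a floor of 3 counts over the 786-M1A group it was at least 179-fold higher in OS-LM1 with sgNTC18 and at least 295-fold higher with shPAX8. ADAM18 held 3 counts in the 786-M1A sgNTC18 libraries, at 0.0822, 0, 0.0324 and 0 CPM, against 108 in OS-LM1, a ratio of 24.9 after scaling (95% exact interval 8.31 to 123, counting error only), and 0 counts in the 8 shPAX8 libraries of 786-M1A, where OS-LM1 was at least 13.3-fold higher.

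The other members with the largest line differences in both construct kinds were ADAM28, ADAMTS2, ADAMTSL3 and ADAMTS12. ADAM28 was higher in OS-LM1 by 5.21 ± 0.41 (adjusted p = 1.85e-11) with sgNTC18 and 3.45 ± 0.32 (adjusted p = 1.07e-10) with shPAX8, with 786-M1A libraries at 0, 0.276, 0.0324 and 0.176 CPM with sgNTC18, 0.105, 0, 0.120 and 0.110 CPM with shPAX8-1 and 0.228, 0.324, 0.249 and 0.267 CPM with shPAX8-2. ADAMTSL3 was higher by 3.90 ± 0.13 (adjusted p = 2.88e-19) and 3.14 ± 0.10 (adjusted p = 5.82e-21), with 786-M1A libraries at 5.67, 5.36, 5.37 and 4.22 CPM with sgNTC18, 4.60, 4.14, 4.33 and 3.81 CPM with shPAX8-1 and 3.93, 2.70, 3.73 and 3.27 CPM with shPAX8-2. ADAMTS12 was higher by 5.31 ± 0.16 (adjusted p = 3.80e-20) and 2.55 ± 0.10 (adjusted p = 3.01e-18). ADAMTS2 was the one lower in OS-LM1, at -6.86 ± 0.31 (adjusted p = 1.52e-16) with sgNTC18 and -3.17 ± 0.16 (adjusted p = 3.78e-16) with shPAX8. Of the ubiquitous members, ADAM9 and ADAM10 were higher in OS-LM1 with both construct kinds (1.12 ± 0.11 and 0.62 ± 0.08 for ADAM9, and 0.93 ± 0.11 and 1.09 ± 0.08 for ADAM10), and ADAM15 was lower (-1.42 ± 0.18, and -1.59 ± 0.13). The line differences of ADAMTS5 and ADAMTS15 were -4.51 ± 0.28 and 4.30 ± 0.29 with sgNTC18, against -0.13 ± 0.17 and 1.03 ± 0.15 with shPAX8.

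Whether the difference between shPAX8 and sgNTC18 itself differed between the lines was tested as an interaction in the fit of 24 libraries, with the mean of both constructs. It was more positive in OS-LM1 for 6 of 31 members, against 29.9% of all genes, and more negative for 16, against 28.8%, with a median of -0.60 beside 0.00 (0.00363 before rounding) over all genes. The 6 were ADAMTS5, ADAMTS2, ADAM19, ADAMTS16, ADAMTS7 and ADAM17, and the largest of the 16 were ADAMTS15, ADAMTSL1, ADAMTS12, ADAMTS18, ADAM11 and ADAM8. Of the 16, ADAMTS18 and ADAM11 passed the filter within 786-M1A only, and ADAM28 and ADAMTS14 within OS-LM1 only. These genes were near the limit of detection in the other line, so their values here cannot show how that line responded. The ADAM17 call was lost without any one of 14 libraries (0.22 to 0.31, adjusted p = 0.0509 to 0.146), that of ADAMTS7 without any one of 5 (0.45 to 0.52, adjusted p = 0.0556 to 0.0762), and that of ADAMTS18 without OS-LM1 sgNTC18 replicate 2 (-1.92, adjusted p = 0.173). ADAM10, ADAM12 and ADAM15 were not called, at 0.16 ± 0.14 (adjusted p = 0.33) for ADAM10, 0.13 ± 0.13 (adjusted p = 0.42) for ADAM12 and -0.17 ± 0.22 (adjusted p = 0.532) for ADAM15. For ADAM12 in OS-LM1 and ADAM19 in 786-M1A the constructs had opposite signs, so the mean of both lies between values of opposite sign.

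**Figure D5:**
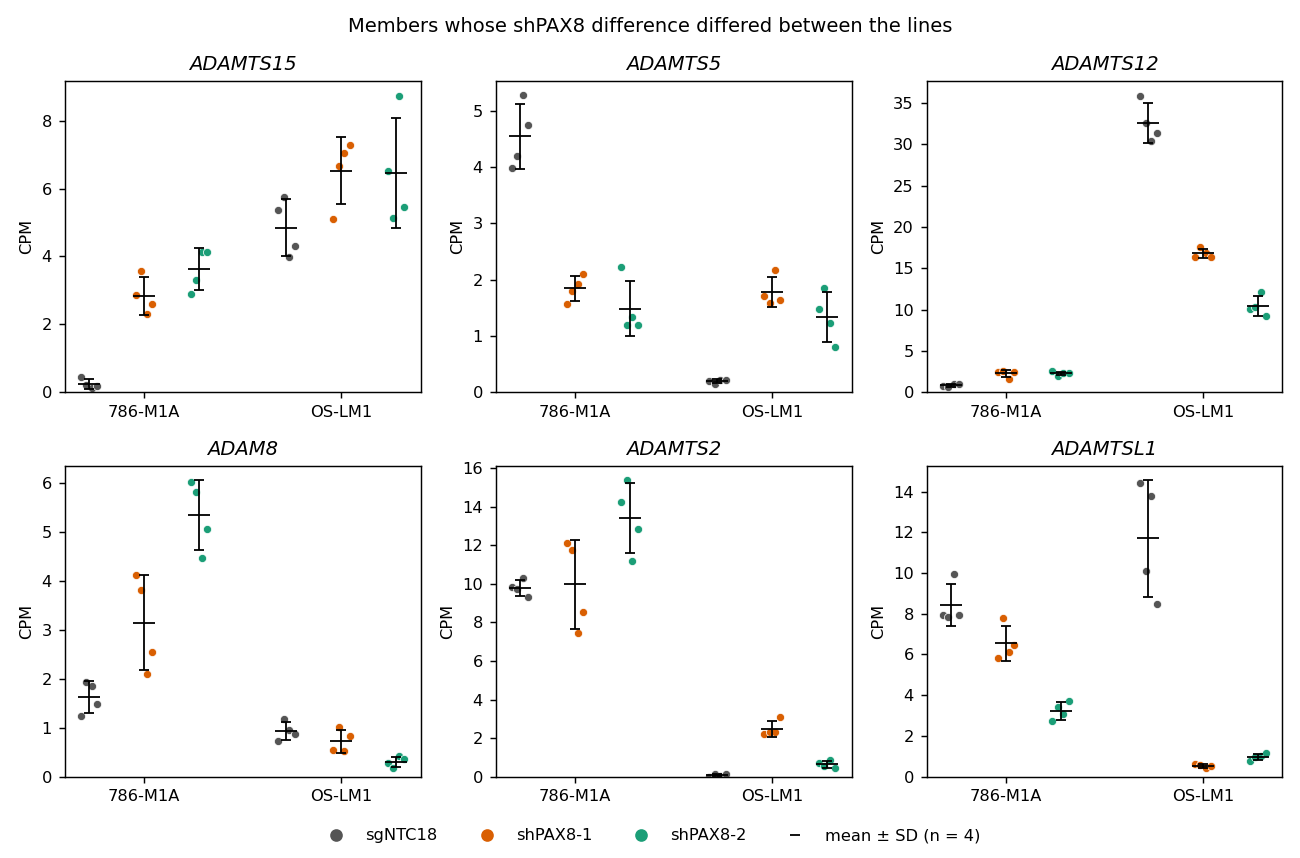
CPM in each library for 6 members whose shPAX8 difference differed between 786-M1A and OS-LM1, with points for libraries and black marks for the mean and SD of 4. ADAMTS5 and ADAMTS2 show a low OS-LM1 sgNTC18 group (0.146 to 0.223 and 0 to 0.146 CPM), and ADAMTS15 a low 786-M1A one (0.129 to 0.452 CPM).

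Genes that act with these proteases were read from lists of inhibitors, maturation partners and substrates. Of the endogenous inhibitors TIMP1 to TIMP4, RECK and A2M, 3 were tested in 786-M1A and 5 in OS-LM1. In 786-M1A 2 were higher with shPAX8-1 and 3 with shPAX8-2, with none lower, and in OS-LM1 4 and 3 were higher and 1 was lower with each construct. Over all genes tested, 36.1% and 31.5% were higher in 786-M1A and 34.5% and 30.9% lower, and in OS-LM1 35.6% and 34.3% were higher and 35.8% and 34.1% lower. TIMP2, a secreted metalloproteinase inhibitor, was higher in all 4 comparisons, at 1.01 and 0.74 in 786-M1A and 2.06 and 1.67 in OS-LM1 (log2). RECK, a membrane-anchored inhibitor that acts on ADAM10, was too, at 0.63, 1.46, 1.31 and 1.90. TIMP1 was the inhibitor called lower with both constructs in OS-LM1, and it was higher with shPAX8-2 in 786-M1A. In OS-LM1, A2M was higher with both constructs and TIMP3 with shPAX8-1 only. The list's medians were 0.63 and 0.74 in 786-M1A and 1.31 and 1.67 in OS-LM1.

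The list of maturation and trafficking partners holds the iRhoms and FRMD8, which carry ADAM17 to the surface, the TspanC8 tetraspanins of ADAM10, and the proprotein convertases that remove prodomains. Of its 13 genes, 2 were higher and 10 lower with shPAX8-1 in 786-M1A, 1 higher and 6 lower with shPAX8-2, and of 12 tested in OS-LM1, 2 were higher and 6 lower with shPAX8-1 and 3 higher and 3 lower with shPAX8-2. Of all genes tested, 34.5%, 30.9%, 35.8% and 34.1% were lower in these comparisons, so the share lower with shPAX8-2 in OS-LM1 was not above that of all genes. The list's medians were -1.20, -0.26, -0.36 and -0.09. PCSK7, a convertase, was lower in all 4 at -1.94, -1.64, -2.34 and -2.08. TSPAN17 (-2.11, -1.33, -0.85 and -0.76) and TSPAN33 (-1.43, -0.71, -1.43 and -1.05), both TspanC8 tetraspanins, were also lower in all 4. The other TspanC8 genes did not share this. TSPAN15 was higher with both constructs in 786-M1A, and TSPAN5 was higher with shPAX8-1 there. With shPAX8-1, TSPAN14 was lower in both lines, and TSPAN10 was lower in 786-M1A and higher in OS-LM1. Of the convertases, PCSK6 was higher with both constructs in OS-LM1. FURIN and PCSK5 were lower with both in 786-M1A and higher with shPAX8-2 in OS-LM1.

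Of the 25 substrates shed by ADAMs, 20 were tested in 786-M1A, where 13 were higher and 4 lower with shPAX8-1 and 12 higher and 4 lower with shPAX8-2. In OS-LM1, 21 were tested, of which 10 were higher and 7 lower with shPAX8-1 and 8 higher and 5 lower with shPAX8-2. Of all genes tested, 36.1% and 31.5% were higher and 34.5% and 30.9% lower in 786-M1A. In OS-LM1 the background was 35.6% and 34.3% higher and 35.8% and 34.1% lower, and the shares of substrates with shPAX8-2 were near or under it. The medians were 0.60 and 0.42 in 786-M1A and 0.09 and -0.07 in OS-LM1. Higher in all 4 comparisons were the EGF receptor ligand HBEGF (1.39, 1.19, 1.67 and 2.46), the interleukin-6 receptor IL6R (1.89, 1.75, 0.69 and 0.43), the Notch ligand JAG1 (1.45, 0.65, 0.63 and 1.35), the receptor NOTCH2 (0.59, 0.73, 0.90 and 1.24) and N-cadherin, CDH2 (0.62, 0.34, 0.70 and 0.65). Of the 13 matrix substrates of ADAMTS proteases, 6 were tested in 786-M1A and 7 in OS-LM1, with 1 and 2 higher and 1 and 1 lower in 786-M1A and 4 higher and 2 lower with each construct in OS-LM1, to be read against those same shares. The medians were 0.05, 0.07, 0.44 and 0.94. The collagen gene COL1A1 was higher in all 4 (0.95, 1.45, 2.62 and 3.36) and the fibronectin gene FN1 lower (-1.68, -1.10, -0.50 and -0.28). RNA levels of substrates say nothing of their shedding, and protease activity was not measured in these libraries.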

How the data were processed

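The members and the gene lists were chosen with earlier results of these data known. The authors mapped reads to hg38 with bowtie2 and RSEM (versions not given in the sources used here) and deposited, per library, RSEM expected counts, TPM and transcript lengths for RefSeq genes. The labels name a stranded poly(A) kit and the methods other kits, and the strand setting of the counting was not given, so overlapping and antisense genes may share reads. RSEM divides ambiguous reads between genes and isoforms, which affects near copies. One marker and one overlapping gene are not reported here. Expected counts, not normalized as deposited, were rounded and analysed in R 4.3.3 with edgeR 4.0.16 (filterByExpr, TMM, robust quasi-likelihood test, Benjamini-Hochberg adjustment over all genes tested), with 12 libraries per fit within a line and 24 between lines. An adjusted p under 0.05 was called. The procedure was tested on simulated data. The deposited TPM values were used only for levels.

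Values in every library are given for up to 8 members per line called in the same direction with both constructs and at 1 TPM or more, the 4 per line that differed most between constructs, and the 6 that differed most between lines, ranked by the smaller of the 2 differences, and the 5 per line with the highest TPM. ADAMTS5 was chosen after its values were seen. Alternatives were DESeq2 1.42.0, its size factors, no filter beyond 1 count, each replicate left out, the replicate number as a block, other thresholds, removal of each library's GC trend, one fit of 24 libraries and, chosen after seeing the data, transcript length as an offset and either pair of the 786-M1A shPAX8-1 libraries.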

Additional observations from a re-analysis of the deposited data

Results flagged for a closer look

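For 22 of the 31 members tested, the log2 difference between shPAX8 and sgNTC18 was itself different between the lines in the interaction test of edgeR, where 29.9% of all genes were more positive in OS-LM1 and 28.8% more negative. Values are OS-LM1 minus 786-M1A. Those of ADAMTS18, ADAM11, ADAM28 and ADAMTS14 rest on few counts in the line where the gene did not pass the filter. More negative in OS-LM1 were ADAMTS15 (-3.28), ADAMTSL1 (-3.13), ADAMTS12 (-2.77), ADAMTS18 (-2.75), ADAM11 (-2.70), ADAM8 (-2.26), ADAMTS6 (-1.86), ADAM28 (-1.77), ADAMTS1 (-1.62), ADAM22 (-1.44), ADAMTS14 (-1.38), ADAMTSL4 (-1.33), ADAMTS3 (-0.82), ADAMTSL3 (-0.76), ADAM9 (-0.50) and ADAMTS9 (-0.29). More positive were ADAMTS5 (4.39), ADAMTS2 (3.69), ADAM19 (2.04), ADAMTS16 (0.55), ADAMTS7 (0.54) and ADAM17 (0.30). ADAM9, ADAMTS9, ADAMTSL4 and ADAM17 were called with the same sign for both constructs in both lines. For them the size differed and not the direction, except that the ADAM17 value with shPAX8-1 in 786-M1A turned to -0.12 with the GC trend removed. Others, among them ADAMTS15 and ADAMTS3, also had the same sign throughout, though not every one of their values was called. ADAMTSL1 had the same sign on counts, but its mean TPM in 786-M1A was higher with shPAX8-1 than with sgNTC18. The ADAM17 call was also lost with DESeq2 size factors (adjusted p = 0.0532) and with the GC trend removed (adjusted p = 0.0968), that of ADAMTS7 with DESeq2 (adjusted p = 0.0546), that of ADAMTS9 with no filter beyond 1 count (adjusted p = 0.0543) and that of ADAMTS14 with the replicate number as a block (adjusted p = 0.0556). With only replicates 1 and 2 of the 786-M1A shPAX8-1 group, ADAM28 was at -1.50 (adjusted p = 0.128) and ADAMTS7 at 0.38 (adjusted p = 0.142), and with only replicates 3 and 4, ADAMTS14 was at -0.80 (adjusted p = 0.278) and ADAM17 at 0.21 (adjusted p = 0.136), none of them called. Leaving out a single library also ended calls. That of ADAMTS18 was lost without OS-LM1 sgNTC18 replicate 2 (-1.92, adjusted p = 0.173), and that of ADAM28 without 786-M1A sgNTC18 replicate 1 or 3 (-1.39 to -1.35, adjusted p = 0.0515 to 0.0688). That of ADAMTS9 was lost without 786-M1A sgNTC18 replicate 2 or 4 or OS-LM1 sgNTC18 replicate 1 (-0.27 to -0.24, adjusted p = 0.05005 to 0.0692). The calls of ADAM17, ADAMTS14 and ADAMTS7 were lost without any one of 14, 7 and 5 of the 24 libraries, at values of 0.22 to 0.31, -1.37 to -1.06 and 0.45 to 0.52.

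Over the members picked by rule for values in every library, 114 groups of 4 libraries were examined for a library far from the others. Groups whose highest library was under 1 CPM were left out, and other members, such as ADAMTS5 and ADAMTS7, were not examined. In all, 3 such libraries were found, where chance gives about 5.7. The 3 were found for ADAM22 in the 786-M1A shPAX8-1 group, where replicate 1 was low at 4.44 CPM, ADAMTS2 in the OS-LM1 shPAX8-1 group, where replicate 4 was high at 3.11 CPM, and ADAMTSL1 in the 786-M1A sgNTC18 group, where replicate 3 was high at 9.97 CPM.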

How the results depend on the processing

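Of the 180 called values of members that were recomputed, 143 kept their direction and call under every alternative in which single values were recomputed. The limit of 0.58 on the absolute log2 fold change was applied to the counts of members only, so it is not among these. Over the alternatives with single values, 4522 of 4763 values kept both, 236 kept the direction only and 5 reversed. The reversed values were ADAM17 with shPAX8-1 in 786-M1A, at -0.12 with the GC trend removed and -0.13 with the replicate block added, ADAMTS2 with shPAX8-2 in 786-M1A, at -0.11 with transcript length as an offset, and ADAMTSL4 between the lines in shPAX8 libraries, at 0.20 with the GC trend removed and 0.21 with the block added. The GC and length corrections themselves make these changes, and what lies behind the trends was not tested. GC content was known for 89.9% of the genes tested. The number of members called between the constructs in OS-LM1 was 14, and 8 at an adjusted p under 0.01 or 9 at an absolute log2 fold change over 0.58. The counts called in the other comparisons stayed within 1.5 times of the values given.

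With each replicate left out in turn, 15 to 18, 20 to 22 and 10 to 14 members were called in 786-M1A (shPAX8-1 and shPAX8-2 against sgNTC18, and between constructs), 19 to 22, 18 to 22 and 10 to 13 in OS-LM1, 23 to 26 and 26 to 29 between lines with sgNTC18 and shPAX8, and 19 to 22 for the difference between lines. With the replicate number as a block, the same counts were 16, 21 and 12, then 21, 20 and 11, then 25 and 28, and 21. Libraries with the same number had correlations of their deviations from the group means of -0.32 to 0.27. Between the 2 shPAX8 groups of 786-M1A these were 0.0365 to 0.271, with a mean of 0.170. Libraries of different number in those groups had a mean of -0.0569 (-0.365 to 0.312). In the other pairings of groups within a line, the same-number means were -0.0880 to 0.0327. The labels do not say what libraries with the same number share. Members under about 1 CPM, such as ADAM11, ADAM18 and ADAMTS4, are limited by depth.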
